A study of Mus musculus with 9 samples.

Results

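Rnh1, the ribonuclease inhibitor gene, was set beside 9 genes of secreted ribonucleases (Ang, Ang2, Ang4, Ang6, Rnase1, Rnase4, Rnase6, Rnase10 and Rnase12) in yolk sacs of Rnh1 mutant mouse embryos. The members are the probe sets whose annotated gene symbol is or includes one of these 10 genes, which gave 9 probe sets of the 28350 on the array, since 1 probe set names both Rnase4 and Ang. Total RNA of yolk sacs at embryonic day 9.5, of mixed (SV 129/C57BL/6) background, was measured on an Affymetrix array that covers whole transcripts. The groups were homozygous knockout (Rnh1-/-, KO), heterozygous (Rnh1+/-, HET) and wild type (Rnh1+/+, WT), with 3 arrays each and 1 sample per array. The labels state neither how the allele was made nor whether a sample pooled several yolk sacs, and they do not say that replicates came from separate litters, so the spread behind the p-values may be technical. Yolk sacs were taken free of maternal tissue, per the labels' protocols. Values are log2 signals, on which a difference of 1 is a change of 2-fold.

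The ribonuclease inhibitor is a leucine-rich-repeat protein of the cytosol that binds secreted ribonucleases of the pancreatic type, the ribonuclease A family, very tightly and blocks their catalytic site. The ribonucleases of this family are small secreted enzymes held together by disulfide bonds, and the inhibitor guards cellular RNA against those that enter the cytosol. Whether each family gene listed here encodes an active enzyme or a target of the inhibitor was not tested. Angiogenin, the product of Ang, is a weak ribonuclease that induces blood vessel growth and cleaves transfer RNA under stress. The yolk sac is the first site of blood formation, and its outer layer, the visceral endoderm, secretes plasma proteins much as the liver does later.

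In the RefSeq gene table (GRCm38.p6) Rnh1 lies on chromosome 7 and all 9 ribonuclease genes lie on chromosome 14, in the order Ang6, Rnase10, Rnase12, Ang, Rnase4, Rnase6, Rnase1, Ang2 and Ang4, with other family members between them. Of the 10 members 9 had entries in the RefSeq promoter table, with 14 windows of 250 bases before an annotated start, and Ang2 had none. Ang and the first start of Rnase4 had 1 and the same window, so that both genes of the shared probe set have an annotated start at the same base, while Rnase4 has a second start downstream. The windows of Rnh1 (2 of its 3), of the Ang and Rnase4 pair, and of the paralogs Ang4 and Ang6 are shown because the results turn on the Rnh1 and Rnase4/Ang probe sets and because Ang4 and Ang6 are close copies. All are 5′ to 3′ on the strand of the gene, and capitals mark matches to a searched motif on either strand.
Rnh1, chr7:141172852-141173101, minus strand: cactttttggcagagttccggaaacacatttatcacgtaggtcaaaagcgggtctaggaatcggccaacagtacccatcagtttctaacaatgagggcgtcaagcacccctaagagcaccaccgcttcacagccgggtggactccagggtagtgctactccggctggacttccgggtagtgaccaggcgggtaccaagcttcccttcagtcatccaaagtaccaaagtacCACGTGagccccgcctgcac
Rnh1, chr7:141168687-141168936, minus strand: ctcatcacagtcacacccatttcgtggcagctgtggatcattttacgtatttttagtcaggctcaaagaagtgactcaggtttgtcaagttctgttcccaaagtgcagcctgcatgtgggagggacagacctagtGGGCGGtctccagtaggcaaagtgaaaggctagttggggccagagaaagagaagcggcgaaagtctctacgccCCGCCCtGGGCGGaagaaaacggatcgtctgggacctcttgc
Ang and Rnase4, shared start, chr14:51090827-51091076, plus strand: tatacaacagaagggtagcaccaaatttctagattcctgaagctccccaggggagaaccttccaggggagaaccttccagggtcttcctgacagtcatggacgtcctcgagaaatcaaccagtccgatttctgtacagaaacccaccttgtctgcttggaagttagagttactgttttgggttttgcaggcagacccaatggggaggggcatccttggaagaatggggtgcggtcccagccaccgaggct
Rnase4, second start, chr14:51095750-51095999, plus strand: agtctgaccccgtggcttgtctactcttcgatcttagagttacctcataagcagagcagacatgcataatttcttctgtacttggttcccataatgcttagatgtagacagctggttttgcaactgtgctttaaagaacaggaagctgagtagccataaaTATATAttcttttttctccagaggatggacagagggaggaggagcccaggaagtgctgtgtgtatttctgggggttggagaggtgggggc
Ang6, chr14:44006419-44006668, minus strand: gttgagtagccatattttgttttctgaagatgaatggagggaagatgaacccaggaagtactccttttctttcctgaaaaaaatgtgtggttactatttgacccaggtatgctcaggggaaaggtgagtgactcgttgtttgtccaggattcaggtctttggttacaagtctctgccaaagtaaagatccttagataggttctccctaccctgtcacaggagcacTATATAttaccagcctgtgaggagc
Ang4, chr14:51773591-51773840, minus strand: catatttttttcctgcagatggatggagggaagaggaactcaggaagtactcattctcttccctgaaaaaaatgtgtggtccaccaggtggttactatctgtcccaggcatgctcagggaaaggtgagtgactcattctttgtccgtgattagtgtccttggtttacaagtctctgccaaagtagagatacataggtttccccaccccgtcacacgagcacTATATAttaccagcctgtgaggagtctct

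The motifs searched, on both strands, were the TATA box TATAAA, the repeat TATATA (which overlapped a TATA box in 1 Rnh1 window not shown), the GC box GGGCGG, the E-box CACGTG, the half-site GTTAAT of the hepatocyte factor HNF1, the GATA motif AGATAA and the forkhead motif TGTTTAC. They occurred in 12.4%, 5.25%, 32.7%, 6.02%, 6.44%, 9.99% and 3.16% of all 32817 windows of the same length, in that order. The first Rnh1 window held an E-box that began 20 bases before the start, and the second one shown held 3 GC boxes, at 115, 42 and 35 bases. The window shared by Ang and Rnase4 held none of the 7 motifs, had a GC content of 52.4%, which is also the median of all windows, and the window of the second Rnase4 start held TATATA at 90 bases. Ang6 and Ang4 were 78.7% identical over their windows in a global alignment and both held TATATA, at 25 bases in Ang6 and at 29 in Ang4. A match is a description of these letters and not evidence of a bound factor.

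A probe set was tested when it named a gene and lay above its array's 40th percentile in 3 or more of the 9 samples, a filter that 15314 of 23398 gene-naming probe sets passed. Of the 9 member probe sets 3 were tested, those of Rnh1, Rnase4/Ang and Ang6, and the other 6 were dim. Array medians ran from 7.07 to 7.20 and the 40th percentile from 6.35 to 6.57, and replicate arrays within a genotype had Pearson correlations of 0.992 to 0.998. Xist, the transcript of the inactive X chromosome, stood at 11.05, 11.06 and 11.67 on the KO arrays, at 5.15, 10.56 and 5.76 on the HET arrays and at 5.69, 10.65 and 11.00 on the WT arrays. Eif2s3y, a gene of the Y chromosome, read 7.62, 7.27 and 4.41 on the KO arrays, 8.68, 7.87 and 8.48 on the HET arrays and 8.81, 8.15 and 4.34 on the WT arrays. Both transcripts were high on KO 1, KO 2, HET 2 and WT 2, only Xist on KO 3 and WT 3, and only Eif2s3y on HET 1, HET 3 and WT 1. RNA of both sexes was thus present on some arrays, where pooled yolk sacs and maternal tissue cannot be told apart. These readings were not balanced between genotypes, and the part of sex in the differences below was not tested.

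**Figure D1:**
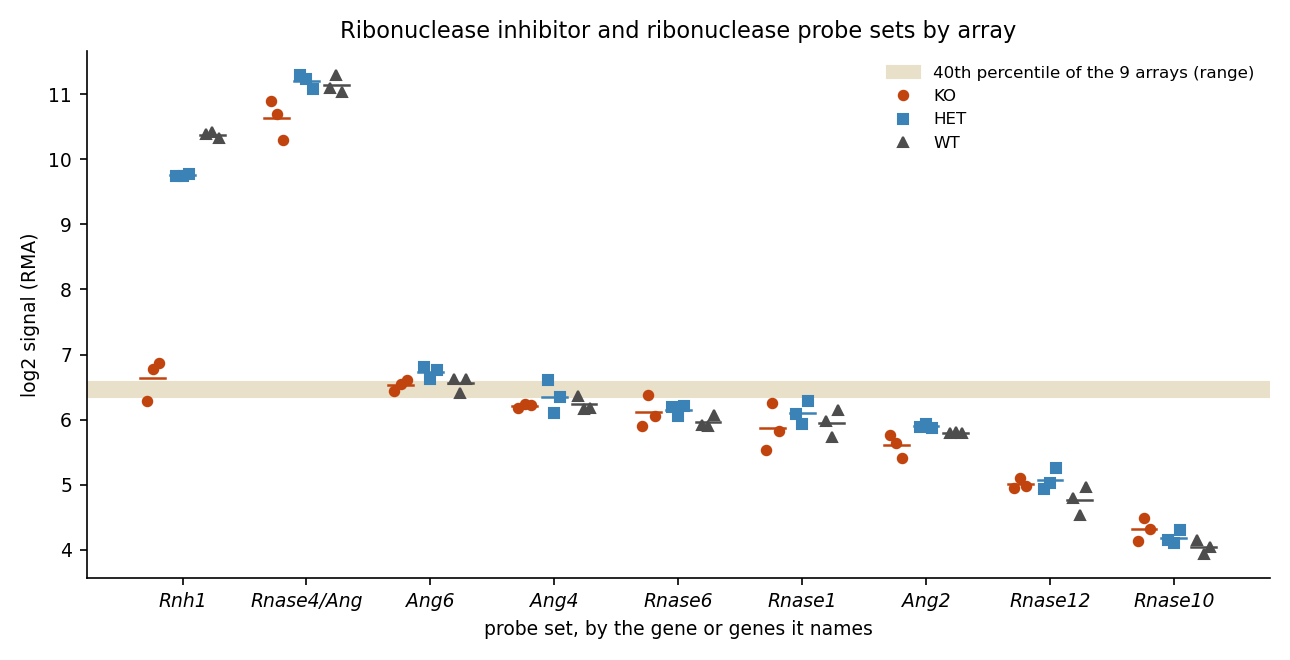
Log2 signal (vertical axis) of the 9 member probe sets on each of the 9 arrays, with KO, HET and WT side by side and a line at each group mean. Rnh1 lay between 6.28 and 6.87 on the KO arrays, near the band of the 40th percentiles, and Rnase4/Ang was above 10 on every array, while 7 ribonuclease probe sets lay close to or under the band.

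Rnh1 was examined first, as a check of the genotype labels. Its signal was 6.28, 6.78 and 6.87 on the KO arrays, 9.75, 9.75 and 9.77 on the HET arrays and 10.39, 10.42 and 10.32 on the WT arrays. The KO arrays were the lowest, the HET arrays lay between, and no pair of genotypes overlapped. In KO the probe set fell to 7.53% of the WT signal (limma log2 difference -3.73, SE 0.13, adjusted p = 1.08e-05), and it ranked number 1 of 15314 by p. It also fell against HET (-3.11, SE 0.13, adjusted p = 3.82e-05). Because KO 1 lay under the 40th percentile of its array, at percentile 37.7, the fold changes of 13.3 against WT and 8.63 against HET are read as lower bounds, and KO 2 and KO 3 lay at percentiles 43.6 and 44.8. The place of the probe set within the gene relative to the mutation is not given.

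HET arrays held 64.9% of the WT signal of Rnh1 (log2 difference -0.62, 95% interval -0.92 to -0.32). The difference had the second-smallest unadjusted p of that comparison (0.00122) and did not pass after adjustment (limma adjusted p = 0.917). It passed without KO 1 (adjusted p = 0.0248) and without WT 2 and KO 1 together (0.0490), where the value stood at -0.62 and -0.60. The interval and the p-values rest on a spread shared by all 3 genotypes, and the SD of Rnh1 was 0.32 in KO, 0.01 in HET and 0.05 in WT. With only the HET and WT arrays in the fit, the SE was 0.04 and the limma adjusted p 0.0687. HET 1 and HET 2 had the same deposited value for this probe set, and such ties between arrays occurred in 47.2% of all probe sets.

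Rnase4 and Ang, which encode ribonuclease 4 and angiogenin, were measured by 1 probe set that cannot be divided between them, and it was the one bright ribonuclease signal. Its signal was 10.90, 10.69 and 10.29 on the KO arrays, 11.30, 11.22 and 11.07 on the HET arrays and 11.10, 11.29 and 11.03 on the WT arrays. All 3 KO arrays lay under all HET and WT arrays, and the HET and WT arrays overlapped. In percentiles of its array the probe set stood at 88.5 to 92.5 in KO, 93.7 to 94.6 in HET and 93.3 to 94.6 in WT, so that it remained among the brighter signals in every genotype. The KO mean was 10.63 ± 0.31, against 11.20 ± 0.12 in HET and 11.14 ± 0.14 in WT (SD, n = 3 arrays each).

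Rnase4/Ang fell in KO to 70.1% of the WT signal (log2 difference -0.51, SE 0.15, 95% interval -0.84 to -0.18, limma adjusted p = 0.0366). It also fell to 67.4% of the HET signal (-0.57, 95% interval -0.90 to -0.24, adjusted p = 0.0258), a comparison that shares the KO arrays with the one against WT. Ranked by unadjusted p, it was number 2834 of 15314 against WT. That places it among the 22.0% of probe sets that passed in this comparison, of which 13.9% were lower and 8.12% higher in KO, and in the KO against HET comparison 21.1% passed. HET arrays stood at 0.06 against WT (95% interval -0.27 to 0.39, adjusted p = 0.960), and 0% of probe sets passed in that comparison by limma, where 406 had an unadjusted p under 0.05.

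The call against WT depended on single arrays. It was lost without WT 1 (adjusted p = 0.0843), WT 2 (0.117), WT 3 (0.0550), HET 1 (0.0537), HET 2 (0.0574), KO 2 (0.0698) or KO 3 (0.0643), and kept without HET 3 (0.0454) or KO 1 (0.0128). The log2 difference stayed below 0 throughout, at -0.35 without KO 3 and -0.65 without KO 1. It was also lost with no filter on low values (0.0525) and with only the KO and WT arrays in the fit (0.0783). The call against HET was lost without HET 1 (0.0901), HET 2 (0.0805) or KO 2 (0.0518) and with only the KO and HET arrays in the fit (0.0545). Among the arrays where Xist and Eif2s3y were both high, Rnase4/Ang stood at 10.90 and 10.69 on KO 1 and KO 2, at 11.22 on HET 2 and at 11.29 on WT 2. Where only Xist was high it stood at 10.29 on KO 3 and at 11.03 on WT 3. Where only Eif2s3y was high it stood at 11.30 on HET 1, 11.07 on HET 3 and 11.10 on WT 1, and no KO array was of this kind. The part of sex was not tested.

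**Figure D2:**
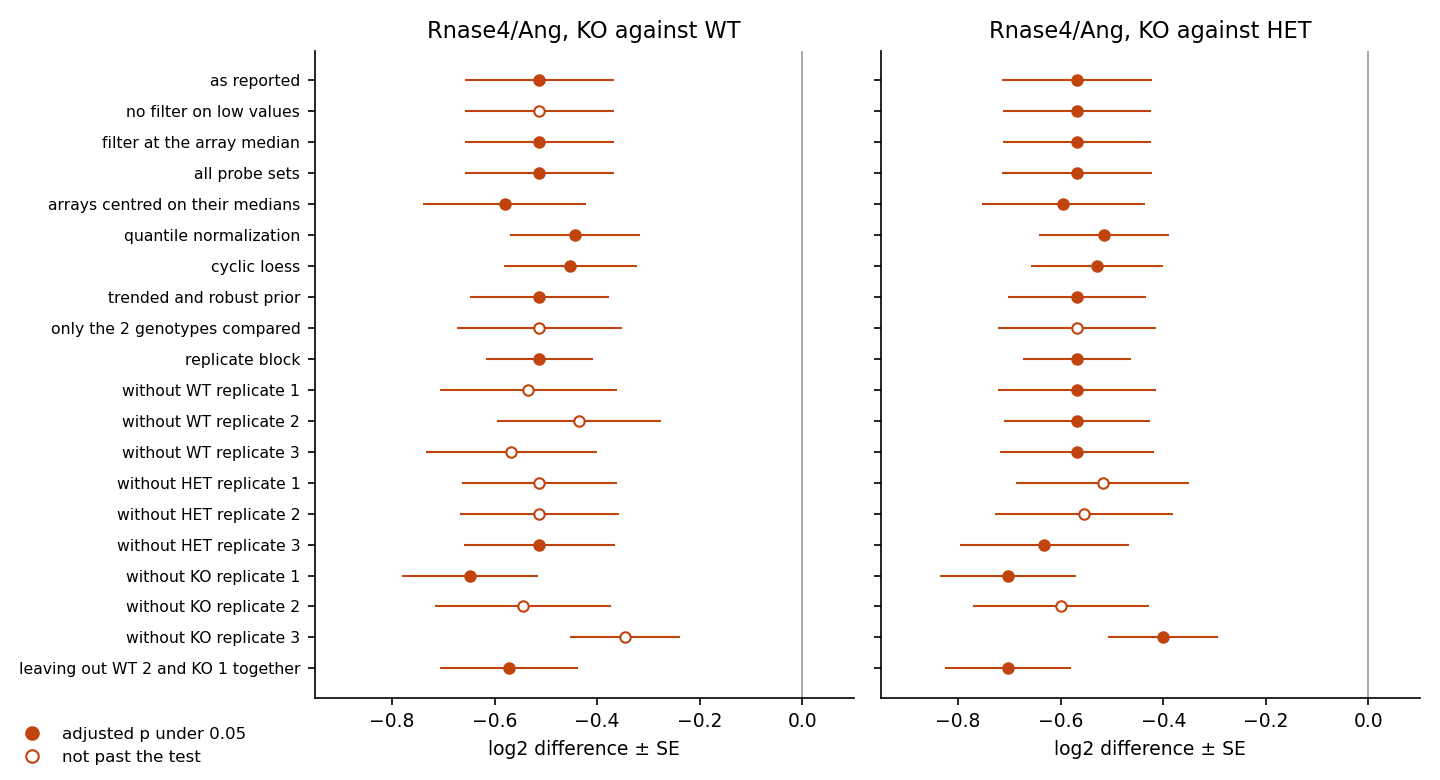
Log2 difference of Rnase4/Ang (horizontal axis, bars give the SE) for KO against WT and KO against HET under each processing choice. Every point lies below 0, between -0.65 and -0.35 against WT and between -0.70 and -0.40 against HET, and filled points mark an adjusted p under 0.05.

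The change of the inhibitor was set against that of the 2 tested ribonuclease probe sets on the same arrays. Rnh1 is the mutated gene, so that its fall is set by the genotype, and its KO signal and that of Ang6 lie near the level of the filter, which limits how exact these differences are. In KO against WT the change of Rnh1 minus that of Rnase4/Ang was -3.22 log2 units, and minus that of Ang6 it was -3.71. The per-array differences behind these values did not overlap between KO and WT. A two-sided exact permutation test gave p = 0.1 for both, and groups of 3 arrays cannot give a smaller one. It gave the same p for the dim ribonuclease probe sets. Because the fall of Rnh1 alone separates the genotypes, this test cannot tell whether a ribonuclease changed. In HET against WT the same differences of changes were -0.68 for Rnase4/Ang and -0.80 for Ang6 (exact permutation p = 0.1 for both, with the same limit). Over all 9 arrays Rnh1 and Rnase4/Ang correlated with r = 0.77, a description of arrays that also differ in genotype.

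Ang6, a member of the angiogenin group that is found in mice, was the other ribonuclease probe set tested, and it was weak. Its signal was 6.44, 6.55 and 6.61 on the KO arrays, 6.81, 6.63 and 6.76 on the HET arrays and 6.63, 6.42 and 6.63 on the WT arrays. KO and WT overlapped, and the KO arrays lay under the HET arrays by a narrow margin. The log2 difference was -0.03 for KO against WT (95% interval -0.21 to 0.16, limma adjusted p = 0.837), 0.18 for HET against WT (-0.01 to 0.36, adjusted p = 0.917) and -0.20 for KO against HET (-0.39 to -0.02, adjusted p = 0.114). The last of these passed after quantile normalization (adjusted p = 0.0216) and cyclic loess (0.0242). Because 8 of 9 arrays lay only just above the 40th percentile, a change of the transcript could be understated, and the close copy Ang4 could share its signal.

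**Figure D3:**
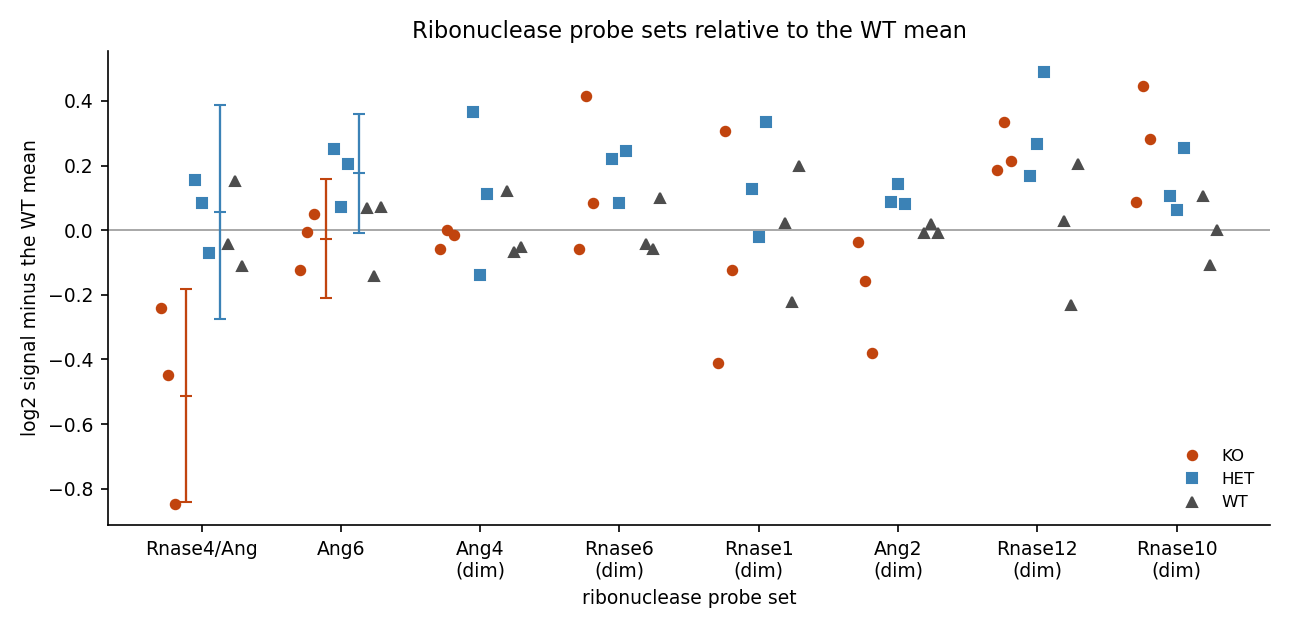
Log2 signal minus the WT mean (vertical axis) of the 8 ribonuclease probe sets on each array, with 95% intervals of the KO and HET differences for the 2 that were tested. The 3 KO arrays of Rnase4/Ang lie 0.24 to 0.85 below the WT mean and under all their HET and WT arrays, those of Ang2 also lie under their HET and WT arrays, and the other probe sets overlap between KO and WT.

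The 6 other ribonuclease probe sets were dim and ranged from 3.94 to 6.60. A dim signal gives no evidence that a transcript was present, and it does not show absence either. Ang4, an angiogenin known from mouse Paneth cells, read 6.18, 6.24 and 6.22 on the KO arrays, 6.60, 6.10 and 6.35 on the HET arrays and 6.36, 6.17 and 6.18 on the WT arrays, and only HET 1 was above its array's 40th percentile. Ang2, an angiogenin-like paralog, read 5.76, 5.64 and 5.42 on the KO arrays, 5.89, 5.94 and 5.88 on the HET arrays and 5.79, 5.82 and 5.79 on the WT arrays. Its KO arrays lay under all HET and WT arrays, by 0.03 log2 units at the closest, and its HET arrays lay above all WT arrays. Over the 9 arrays it correlated with Rnase4/Ang with r = 0.94.

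Rnase6 encodes an antimicrobial ribonuclease of monocytes and macrophages. It read 5.91, 6.38 and 6.05 on the KO arrays, 6.19, 6.05 and 6.21 on the HET arrays and 5.92, 5.91 and 6.07 on the WT arrays. Rnase1, the pancreatic ribonuclease that is also made by endothelium, read 5.54, 6.26 and 5.83 on the KO arrays, 6.08, 5.93 and 6.29 on the HET arrays and 5.98, 5.73 and 6.15 on the WT arrays. In both genes the KO arrays spread more widely than the WT arrays and the groups overlapped. Rnase12 and Rnase10 are best known from the male reproductive tract. Rnase12 ranged from 4.54 to 5.26 and Rnase10 from 3.94 to 4.49 over the 9 arrays.

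Among these 6, the log2 difference of KO against WT ran from -0.19 in Ang2 to 0.27 in Rnase10, with 3 above 0 and 3 below. For HET against WT all 6 lay above 0, between 0.10 and 0.31, where the median of all probe sets with no filter was 0.02. The 40th percentile was 6.51, 6.46 and 6.57 on the HET arrays and 6.46, 6.35 and 6.49 on the WT arrays. The part of this offset at the low end in the shared direction was not tested, so that direction is not read as a result about ribonucleases. When every probe set naming a gene was fitted with no filter, none of the 6 passed in any comparison by limma, while 2 had an unadjusted p under 0.05 for KO against WT (Ang2 and Rnase10), 1 for HET against WT (Rnase12) and 1 for KO against HET (Ang2). Over all 23398 probe sets of that fit, 26.8%, 2.97% and 24.1% had an unadjusted p under 0.05 in these comparisons, in the same order. The lowest adjusted p of the 6 was 0.0549, for Ang2 in KO against HET, with a difference of -0.29. Groups that do not overlap were common on this array, at 39.7% of tested probe sets for KO against WT, 36.8% for KO against HET and 11.6% for HET against WT.

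The rest of the ribonuclease A family was dim by the same filter. Of 17 further family genes, which include the eosinophil-associated Ear genes and Rnase2a, Rnase2b, Rnase9, Rnase11 and Rnase13, 8 had a probe set and all 8 were dim, from 3.44 in Ear14 to 5.98 in Rnase11. Members of the family were thus above the filter in 2 of 16 probe sets, those of Rnase4/Ang and Ang6.

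Ribonucleases that are not of the pancreatic type and are not known as targets of the inhibitor were measured better. Of 12 such genes 11 probe sets were found and 10 were tested. In KO against WT 1 rose, 1 fell and 8 did not pass, with a median of 0.00 beside -0.0002 for all probe sets tested. The 2 calls among 10 are near the 22.0% of all probe sets that passed. Endov, an endonuclease that cuts RNA at inosine, rose with 7.92, 7.91 and 7.86 on the KO arrays, against 7.64, 7.59 and 7.65 on the WT arrays (log2 difference 0.27, SE 0.05, limma adjusted p = 0.00577). It passed without any single array (adjusted p from 0.00930 to 0.0271), and also rose against HET (0.36, adjusted p = 0.00208). Rnaseh2b, a subunit of the enzyme that removes ribonucleotides from DNA, fell with 9.38, 9.02 and 8.96 on the KO arrays, against 9.44, 9.61 and 9.43 on the WT arrays (-0.38, adjusted p = 0.0403). That call was kept only when KO 1 was the array left out and was lost without each of the 8 others (adjusted p up to 0.128).

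Dicer1, which processes microRNA precursors, stood at 10.44 ± 0.10 in KO, at 10.23 ± 0.01 in HET and at 10.37 ± 0.01 in WT (SD, n = 3). It passed for KO against HET only (0.21, adjusted p = 0.0369; 0.07 and 0.406 against WT), and this call was lost without any of 7 single arrays. Drosha, which acts before it, stood at 0.05 against WT (adjusted p = 0.685). The lysosomal and secreted ribonuclease T2 genes Rnaset2a and Rnaset2b share 2 probe sets, which stood at -0.04 and -0.05 in KO against WT. Ern1, Rnaseh1, Rnaseh2a and Rnaseh2c, also tested, lay between -0.05 and 0.03 in that comparison, and Endou was dim.

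Genes reported to bind angiogenin or act as its receptor were all above the filter, 5 of 5. None passed for KO against WT by limma, where the median was -0.20. For 1 of them the unadjusted limma p was under 0.05, beside 5673 of all 15314 tested probe sets. In KO against HET 1 of the 5 was lower. This was Plxnb2, a receptor through which angiogenin acts, with 11.45, 11.46 and 11.31 on the KO arrays, against 11.82, 11.70 and 11.57 on the HET arrays (-0.29, adjusted p = 0.0333). Against WT it stood at -0.23 (adjusted p = 0.0684), and the call against HET was lost without WT 1, HET 1, HET 2, KO 2 or KO 3. The proteoglycan gene Sdc4 (-0.09), the receptor gene Egfr (-0.20) and the actinin gene Actn2 (0.14) did not pass against WT. Fst, which encodes follistatin, read 7.30, 6.92 and 7.57 on the KO arrays, 7.06, 7.21 and 7.38 on the HET arrays and 10.09, 6.62 and 10.41 on the WT arrays, so that only WT 1 and WT 3 were high, and the KO difference did not pass (-1.78, SE 0.84, adjusted p = 0.158).

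The 3 named genes most like Rnh1 over the 9 arrays were Slc25a5, a mitochondrial nucleotide carrier (r = 0.99), Stt3a, a subunit of the oligosaccharyltransferase (0.99), and the transcription factor gene Stat3 (0.99). The 3 least alike were Srrt (-0.99), the transcription factor gene Srf (-0.99) and the adenylate kinase gene Ak1 (-0.99). They were picked for their correlation over these arrays, where Rnh1 separates KO from the rest, so that a difference between KO and WT follows from the choice. It ran from -0.27 to -0.25 for the first 3 and from 0.26 to 0.53 for the other 3. In HET against WT the 6 lay between -0.04 and 0.05.

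Rnase4/Ang was most like Plg (r = 0.99), which encodes plasminogen, Sccpdh (0.99) and Tbc1d13 (0.99), and least like Sgsm1 (-0.97), Noct (-0.97) and Sh2b2 (-0.97). Plg read 9.57, 9.24 and 8.77 on the KO arrays, 10.27, 10.15 and 9.89 on the HET arrays and 10.01, 10.19 and 9.79 on the WT arrays. It was lower in KO than in WT (-0.80, SE 0.19, limma adjusted p = 0.0208), a call lost without WT 1, WT 2 or KO 2. These genes were picked for their correlation over the same arrays, so the match of their group differences is no separate result.

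The genes around Ang and Rnase4 on chromosome 14 were set beside them. Genes without a tested probe set of their own were passed over. The 5 nearest tested genes on either side, 10 genes with 11 probe sets and none of the family, lay between -0.40 and 0.21 for KO against WT. Their median was -0.01. Of the 11, 7 lay below 0 and none passed by limma, and whether they differed from Rnase4/Ang was not tested. An unadjusted limma p under 0.05 was found for 4 of the 11, beside 5673 of all 15314 tested probe sets. In KO against HET 1 of the 11 was lower, Tmem253 (-0.62, adjusted p = 0.0151), which stood at -0.40 against WT (95% interval -0.71 to -0.09, adjusted p = 0.0681) with no overlap between the groups. Osgep stood at -0.24 against WT on both of its probe sets. The Tmem253 call against HET was lost without HET 1 or HET 2.

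Markers of the cell types in the samples were set beside the ribonuclease values, and their part in them was not tested. In bulk tissue, fewer cells of a type and less RNA per cell cannot be told apart. All 7 visceral endoderm markers were bright, and the list mean was 12.46 to 12.61 on the KO arrays, 12.64 to 12.80 on the HET arrays and 12.69 to 12.77 on the WT arrays. Of the 7, 1 passed as lower in KO against WT, Afp, the alpha-fetoprotein gene (-0.33, adjusted p = 0.00820), and the median of the list was -0.15. All 7 lay below 0, from -0.33 in Afp to -0.08 in Apoa1. Afp stood at percentiles 99.0 to 99.6 of its arrays. Whether signals so near the top understate a change was not tested, so small differences here do not show that this tissue was unchanged.

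Of 7 macrophage markers 5 were tested and 3 were lower in KO against WT, Mrc1 (-1.29), Fcgr3 (-0.83) and Csf1r (-0.39), while Cd68 (-0.01, adjusted p = 0.980) and Cx3cr1 (0.13, adjusted p = 0.314) did not pass and Ptprc and Adgre1 were dim. Of all tested probe sets 13.9% were lower and 8.12% higher in KO against WT, the background for each count of markers. Fcgr3 lost its call without WT 1, WT 2 or KO 3, and Csf1r without WT 2 or WT 3. The macrophage mean was 7.10 to 7.37 on the KO arrays, 7.53 to 7.68 on the HET arrays and 7.46 to 7.69 on the WT arrays. Among 5 primitive erythroid markers Hbb-y was lower (-0.20, adjusted p = 0.0461), a call kept only when KO 1 was the array left out. All 5 lay below 0, and the largest fall, in Klf1, did not pass (-0.43, limma adjusted p = 0.0977). Hbb-y stood at percentiles 99.7 to 99.9 of its arrays, and whether such signals understate a change was not tested. Among 5 endothelial markers Tek was lower (-0.30), a call lost without any 1 WT array, KO 2 or KO 3. Of 5 extraembryonic mesoderm markers Hand1 was higher (0.75) and Postn lower (-0.35, lost without WT 2 or KO 2). Of 7 granulocyte and eosinophil markers 5 were dim and the 2 tested, Prtn3 and Mpo, did not pass. The median of these 2 was -0.22 for KO against WT and -0.32 for KO against HET. Among the dim ones S100a8 went the other way, with 5.68, 5.46 and 5.69 on the KO arrays, 5.22, 5.10 and 5.37 on the HET arrays and 5.10, 5.14 and 5.11 on the WT arrays. In the limma fit with no filter S100a8 passed for KO against WT (0.49, adjusted p = 0.00858) and against HET (0.38, adjusted p = 0.0230). That fit called 2751 of 23398 probe sets for KO against WT and 2604 for KO against HET.

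Genes listed as markers of trophoblast, embryo proper and maternal decidua were not even across arrays. Whether their signal came from such tissue, and their part in the results, was not tested either. The mean of 4 trophoblast probe sets was 7.69, 7.81 and 8.57 on the KO arrays, 6.38, 7.05 and 7.46 on the HET arrays and 7.19, 7.42 and 7.79 on the WT arrays, with Hand1, which is also on the mesoderm list, higher in KO among 3 tested and Tpbpa dim on all arrays but KO 3 (7.84). Embryo proper markers, 3 probe sets all below the filter, averaged 6.82 on KO 3 and 5.53 to 5.98 on the 8 other arrays. KO 3 was also the array with the lowest Rnase4/Ang, and without it the difference against WT was -0.35. The mean of 4 maternal decidua markers was 9.41 to 9.88 on the KO arrays, 8.45 to 9.43 on the HET arrays and 9.20 to 9.74 on the WT arrays, and Des was higher in KO against WT (0.64, adjusted p = 0.00531). Within this list the decidual prolactin-family gene Prl8a2 stood at 10.50 ± 0.80 in KO, at 7.81 ± 1.71 in HET and at 9.67 ± 0.94 in WT (SD, n = 3). In KO against HET both Prl8a2 (2.69, limma adjusted p = 0.0490) and Des (0.77, adjusted p = 0.00265) were higher, while Dcn (-0.08) and Cryab (0.02) did not pass. The Prl8a2 call was kept only when HET 2 was the array left out, and the Des call was never lost.

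**Figure D4:**
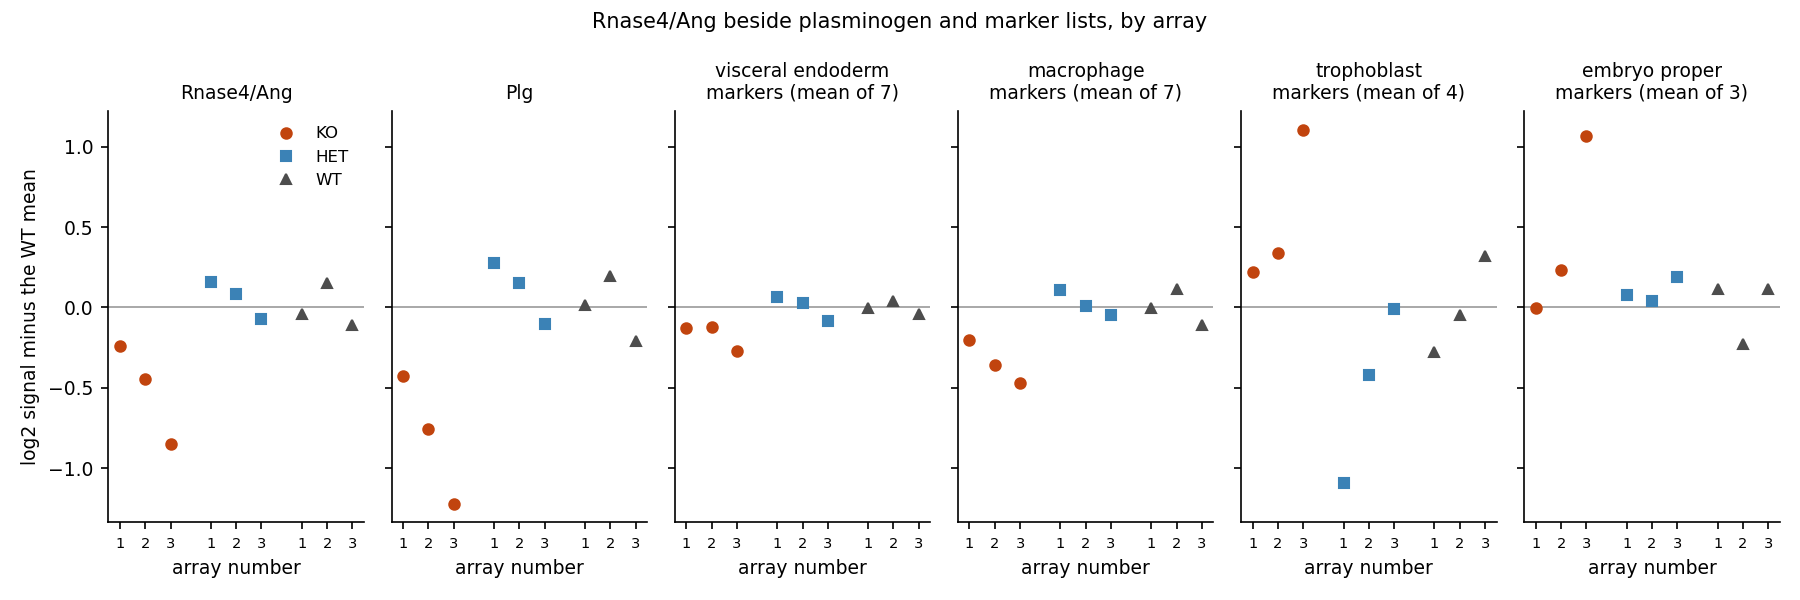
Log2 signal minus the WT mean (vertical axis) of Rnase4/Ang, plasminogen and the means of 4 marker lists on each array (horizontal axis, array number within KO, HET and WT). KO 3 has the lowest Rnase4/Ang, Plg, visceral endoderm and macrophage values and the highest trophoblast and embryo proper means.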

How the data were processed

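The deposited table holds log2 signals per probe set for 9 arrays, which per the submitters' processing notes the authors made with RMA (Affymetrix Expression Console, version 1.2.1.20). RMA corrects background, normalizes arrays and summarises probes, and it compresses changes of dim probe sets. No source used here gives the array annotation's genome build. For arrays, their number limits the precision. Gene names came from the platform's probe table, in which 21780 probe sets named 1 gene, 1618 several and 4952 none.

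All 9 arrays entered 1 limma 3.58.1 model (R 4.3.3) with genotype as the factor and empirical Bayes moderation. Each pair of genotypes was compared (KO or HET with WT, and KO with HET), with Benjamini-Hochberg adjustment over 15314 probe sets and a threshold of 0.05. Probe sets of several genes stayed in the fit. The fit was tested on simulated data. Differences in change between Rnh1 and a ribonuclease were tested by two-sided exact permutation of arrays. Promoter windows came from RefSeq (GRCm38.p6).

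The members and the lists (other ribonuclease A family, other ribonucleases, angiogenin binding genes and 9 marker lists) were chosen with earlier results of these data known. The named genes were all members, list genes past the test, and the 3 most and 3 least correlated single-gene probe sets for Rnh1 and Rnase4/Ang. Other list genes and the nearest tested neighbours on chromosome 14 are given as values. Alternatives were other filters, 1 probe set per gene, other normalizations, another prior, only the 2 genotypes compared, the replicate number as a block, each array left out in turn, and WT 2 and KO 1 left out together. Replicate numbers were not used as pairs in the main model. Of 9 correlations between same-numbered arrays of different genotypes, 5 were over 0.1 (range -0.27 to 0.44). Arrays with different numbers were not compared, so these values cannot tell whether a number marks a shared batch or litter.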

Additional observations from a re-analysis of the deposited data

How the results depend on the processing

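Rnh1 passed for KO against WT and KO against HET under all 20 alternatives, with log2 differences from -3.84 to -3.53 and from -3.22 to -2.93. For HET against WT it stood between -0.65 and -0.60 with 1 array left out, and passed without KO 1 (-0.62) and without WT 2 and KO 1 together (-0.60). Of the ribonuclease probe sets, 1 passed for KO against WT, but 0 with no filter, with 1 probe set per gene (which leaves out the shared Rnase4/Ang probe set) and with only the 2 genotypes compared, and 0 to 1 with 1 array left out. For KO against HET, where 1 passed, the number was 0 with 1 probe set per gene and with only the 2 genotypes compared, 2 after quantile normalization and 2 after cyclic loess, and 0 to 1 with 1 array left out. The Ang6 difference of KO against WT ranged from -0.097 to 0.022 with 1 array left out, and it lay above 0 without WT 1, WT 3 or KO 1. Over all probe sets 3373 passed for KO against WT, 1763 to 4221 with 1 array left out. For KO against HET 3227 passed, 2088 with only those genotypes and 1699 to 3483 with 1 array left out. For HET against WT 0 passed, 0 to 1 with 1 array left out and 4 without WT 2 and KO 1. Of the KO against WT calls 63.1% were lower, against 80.3% with arrays centred on their medians, 54.1% after quantile normalization and 55.2% with cyclic loess. Rnase4/Ang lay below 0 under each of these (-0.58, -0.44 and -0.45). With the replicate number as a block, 3407 probe sets passed for KO against WT, 3136 for KO against HET and 0 for HET against WT. In that fit Rnase4/Ang had a limma adjusted p of 0.0167 against WT. The labels do not state what a replicate number stands for. The causes of these shifts were not tested.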
